A study of Mus musculus with 2 samples.

Results

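Integrin and laminin genes were followed through 2 arrays that set MMP-14 knockout against wild-type mouse liver RNA. Members were all genes on the array named Itga or Itgb with a number or letter, without the genes of integrin-binding proteins, and all named Lama, Lamb or Lamc with a number. This gave 33 genes (24 integrin and 9 laminin chains) of 16390 named genes, each read by 1 probe. On the first array, RNA of MMP-14 knockout cells (Cy3) was hybridised with RNA of wild-type cells (Cy5). The cells were sorted from fetal livers as Dlk+ CD45- CD71- Ter119-, a gate for hepatoblasts without blood cells, with 100000 cells from 3 livers per genotype. Its labels say E14 and the design text says E14.5. On the second array, mixed RNA of 2 MMP-14 knockout livers (Cy3) was hybridised with mixed RNA of 2 wild-type livers (Cy5). Its labels say P1, postnatal day 1, whereas the design text says E18.5, and it is called P1 liver here. The knockout allele, the strain and any treatment are not given in the sources used here.

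MMP-14 is a protease anchored in the cell membrane that cuts matrix proteins and activates the soluble protease MMP-2. Laminins are secreted trimers of an alpha, a beta and a gamma chain that polymerise into the sheet of basement membranes, where nidogens, perlecan and type IV collagen join them. Integrins are membrane receptors of an alpha and a beta chain that bind laminins, collagens, fibronectin or other cells and link them to actin through talin, kindlin and the kinase ILK. In liver, laminin surrounds bile ducts and vessels, and the walls of adult sinusoids lack a continuous basement membrane.

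Each comparison was made on 1 array without a dye swap, so there is no test, no error between animals, and no way to separate the dyes from the genotypes. In these RNA pools, fewer cells of a type and less RNA per cell cannot be told apart. A channel was called detectable above the mean of the blank spots plus 2 SD. These thresholds were 87.0 (knockout) and 50.5 (wild type) on the P1 liver array, and 85.1 and 44.3 on the E14 Dlk+ array, so raw signals are not comparable across the dyes. Ratios below are normalised log2 values with the knockout on top, and a gene was counted as higher or lower at 1.5-fold, a log2 ratio of 0.58 or more either way. As a gauge of technical spread, different probes of the same gene had a pooled SD of 0.23 on the P1 liver array and 0.12 on the E14 Dlk+ array (139 genes each). The targeted gene, Mmp14, had signals of 104 in knockout and 161 in wild-type P1 liver (ratio -1.30), and of 132 and 131 in knockout and wild-type E14 cells (ratio -1.13). The sources used here do not say whether its probe lies in the deleted part. Dlk1, Afp, Alb, Hnf4a, Ttr and Apoa2, which mark hepatoblasts and hepatocytes, were detectable in all 4 channels. Their median was -0.35 in P1 liver, where Dlk1, Afp and Hnf4a lay above 0 and Alb, Ttr and Apoa2 below, and -1.15 in E14 cells, where all 6 lay below 0. Without whole-number readings, which leaves Dlk1 and Hnf4a, the medians were 0.21 in P1 liver and -0.08 in E14 cells.

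In whole P1 liver, laminin chains were lower in the knockout, while integrins were close to the wild type. Of the 7 laminin genes detectable in both channels, 5 passed 1.5-fold on the lower side and 0 on the higher side. None of the 21 integrin genes detectable in both channels passed 1.5-fold in either direction. Among all 12715 genes detectable in both channels, 4.12% passed 1.5-fold on the lower side and 2.85% on the higher side. Below 0 lay 21 of the 28 members detectable in both channels, against 50.4% of all genes. The median log2 ratio was -0.74 over the 7 laminins, -0.06 over the 21 integrins and -0.00 over all genes.

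Lamb2 and Lamc1, chains that join in laminins of vessels and epithelia, had signals well above the thresholds in P1 liver. Lamb2, which encodes the beta2 chain, gave a signal of 261 in knockout P1 liver and 349 in wild-type P1 liver. These signals were 3.0 and 6.93 times their thresholds, and the normalised log2 ratio was -0.97, or 1.96-fold lower in the knockout. Lamc1, which encodes the gamma1 chain of most laminins, gave a signal of 203 in knockout and 273 in wild-type P1 liver. Its log2 ratio was -0.98, 1.98-fold lower in the knockout, so both genes lay several times above the 0.23 spread between probes. In the authors' deposited table Lamb2 stood at -1.19 and Lamc1 at -1.34.

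The other 3 laminin genes that were lower had knockout signals near the threshold. Lamb3, the beta3 chain of a laminin that anchors epithelia, was the 1 member also past 2-fold, as were 1.45% of all genes on the lower side. It had the lowest ratio of the family at -1.23, with signals of 99.5 in knockout and 146 in wild-type P1 liver. Lama3, the alpha3 chain of the same epithelial laminin, had signals of 117 in the knockout and 127 in the wild type and a log2 ratio of -0.74. Lama5, the alpha5 chain widespread in mature epithelial and vascular basement membranes, had signals of 109 in the knockout and 115 in the wild type and a log2 ratio of -0.73. The knockout signal was 1.14 times the threshold for Lamb3, 1.34 times for Lama3 and 1.25 times for Lama5, against 2.90, 2.51 and 2.29 times in the wild type. The authors' deposited table, which adds no offset to dim signals, gave -2.96 for Lamb3, -1.63 for Lama3 and -1.81 for Lama5. In those deposited values 10 members passed 1.5-fold on the lower side, Lama3, Lama4, Lama5, Lamb2, Lamb3 and Lamc1 with Itga4, Itga6, Itga8 and Itgax, against 12.2% of all genes. With the local background used, Lama5 stood at -0.27 and no longer reached 1.5-fold.

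The other 4 laminin genes were not counted as lower. Lama4, the alpha4 chain of endothelial and mesenchymal basement membranes, lay just under it at -0.53, with signals of 95.6 in knockout and 85.3 in wild-type P1 liver. It stood at -1.94 in the authors' deposited table and at -0.14 with the local background used, so its ratio depended on how dim signals were treated. Lama1, an alpha chain of early embryonic basement membranes, had signals of 108 and 64.8 in knockout and wild-type P1 liver and a ratio of 0.06. Lama2 and Lamc3 were detectable in the wild-type channel only, at 1.01 and 1.06 times the threshold. Their bounds were at least 1.06-fold (Lama2) and 1.09-fold (Lamc3) below the wild type, both close to 1, and that of Lamc3 equals its measured ratio.

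**Figure D1:**
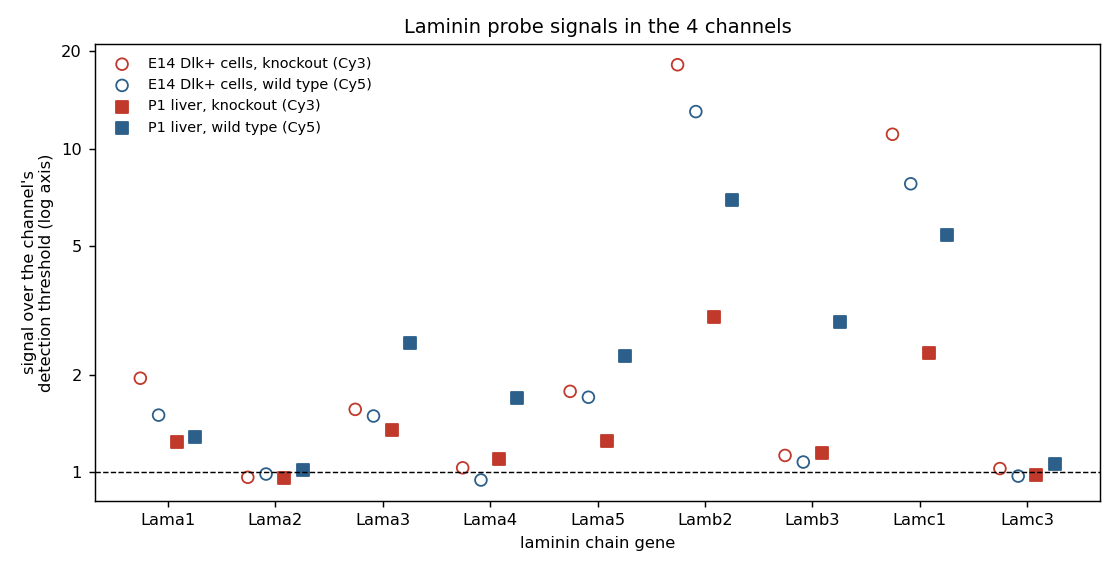
Signals of the 9 laminin probes divided by the detection threshold of their channel (log axis, dashed line at 1), with 1 point per channel: open circles for E14 Dlk+ cells, filled squares for P1 liver, red for knockout and blue for wild type. In P1 liver the knockout point lies below the wild-type point for all 9 genes, and in E14 Dlk+ cells above it for all but Lama2. This scale is not corrected for the dyes. The median signal of all gene probes was 113 in knockout and 73.4 in wild-type P1 liver. In E14 Dlk+ cells it was 122 in knockout and 58.5 in wild type. Over the thresholds these medians lie the same way as the laminin points on each array, so that direction is not particular to laminins.

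Upstream sequence is shown for Lamb2 and Lama5, which were lower in knockout P1 liver, and for Itgb1, the shared integrin beta chain, whose ratio was near 0. The stretches end before the transcription start and run 5′ to 3′ on the gene's strand, from RefSeq on build GRCm38.p6, with CG dinucleotides in capitals. They lie at chr9:108479612-108479846 on the plus strand for Lamb2, at chr2:180225905-180226109 on the minus strand for Lama5 and at chr8:128685404-128685653 on the plus strand for Itgb1.
Lamb2: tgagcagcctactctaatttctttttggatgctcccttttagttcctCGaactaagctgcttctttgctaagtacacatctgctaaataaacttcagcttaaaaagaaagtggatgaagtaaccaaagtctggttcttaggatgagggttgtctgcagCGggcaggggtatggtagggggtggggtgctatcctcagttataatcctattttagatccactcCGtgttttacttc
Lama5: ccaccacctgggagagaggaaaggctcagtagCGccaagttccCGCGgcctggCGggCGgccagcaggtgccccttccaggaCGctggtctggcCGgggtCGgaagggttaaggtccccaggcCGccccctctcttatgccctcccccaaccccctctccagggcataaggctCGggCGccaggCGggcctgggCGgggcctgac
Itgb1: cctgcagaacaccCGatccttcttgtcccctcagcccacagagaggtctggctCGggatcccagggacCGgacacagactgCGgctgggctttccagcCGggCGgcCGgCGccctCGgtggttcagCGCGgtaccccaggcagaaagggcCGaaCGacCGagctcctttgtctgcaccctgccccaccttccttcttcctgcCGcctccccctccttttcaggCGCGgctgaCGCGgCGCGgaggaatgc
The Lamb2 stretch of 235 bases held 3 CG dinucleotides and 43.0% G and C, against 13 and 71.7% in the 205 bases of Lama5 and 21 and 68.0% in the 250 bases of Itgb1. The GC box GGGCGG, searched on both strands, occurred 0 times before Lamb2, 3 times before Lama5 and 1 time before Itgb1. The 2 laminin genes thus had unlike upstream sequence. The RefSeq table matched 22 of the 33 members, with 25 promoters. Of these 32% held GGGCGG and 0% held TATAAA on either strand in their first 250 bases, against 32.7% and 12.4% of all 32851 promoters. Unlike the printed stretches, these windows were not cut where the gene begins, so those of Lamb2 and Lama5 include bases of the gene. A match of letters is a description and not a binding site.

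Among integrins of P1 liver, all 4 laminin receptor chains lay below 0, with a median of -0.19. Itga6, the alpha chain shared by the main laminin receptors of epithelia and platelets, had signals of 135 in knockout and 121 in wild-type P1 liver and a ratio of -0.42. It was the lowest integrin in this array, at -0.91 in the authors' deposited table. Itga7, a laminin receptor chain of muscle, had signals of 187 and 160 in knockout and wild type and a ratio of -0.31. Itga3 (108 and 71.6, ratio -0.07) and Itgb4, the partner of Itga6 in hemidesmosomes (113 and 75.2, ratio -0.05), were closer to 0 than the spread between probes, and Itgb4 stood at 0.10 with the local background used.

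Receptors of other ligands differed little between the genotypes of P1 liver. Itgb1, the beta chain that pairs with most alpha chains, had signals of 1008 in knockout and 709 in wild type, 11.6 and 14.1 times the thresholds, and a ratio of -0.09. It stood at 0.05 in the authors' deposited table and at 0.31 with median centring, so its direction is not settled. Itgb5, a vitronectin receptor chain, stood at -0.24 (525 and 422), but at 0.07 with median centring. Itga8, the nephronectin receptor chain of stellate and smooth muscle cells, stood at -0.31 (156 and 132), but at 0.34 with the local background used, so its sign also depended on the processing. The highest integrin was Itgb3, the beta chain of the platelet fibrinogen receptor and of a vitronectin receptor, at 0.29 (153 and 85.8). Its platelet partner Itga2b stood at 0.07 (316 and 210), Itgav at 0.03 (101 and 61.3) and the fibronectin receptor chain Itga5 at -0.01 (98.9 and 61.3). Collagen receptor chains lay near the threshold, Itga2 at 1.04 and 1.03 times the threshold in knockout and wild type (signals of 90.2 and 52.1, ratio 0.03), and Itga1 below it in both channels (82.9 and 49.7). Itga11 stood at 0.04 (117 and 73.7), while Itga10 and Itgb6 were detectable in no channel of either array.

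Leukocyte integrin chains were detectable in both P1 liver channels, and all 5 on the array had ratios from -0.24 to -0.02. Itgb2, the common beta chain of leukocyte integrins, stood at -0.24 (234 in knockout and 192 in wild type). Its partners Itgam of myeloid cells (126 and 85.6) and Itgal of lymphocytes and other leukocytes (109 and 70.0) stood at -0.05 and -0.02. Itgax and Itgb7, chains of dendritic cells and lymphocytes, stood at -0.10 and -0.06. With the local background used, Itgal stood at 0.06, Itgax at 0.09 and Itgb7 at 0.14. Itgb2l, related to the beta2 chain, stood at 0.16 (230.5 and 146). Itga4, which pairs with Itgb1 on leukocytes, lay close to the threshold (89.0 and 55.8) with a ratio of -0.09, and Itga9 stood at -0.10 (128 and 90.7). Beside these, macrophage markers had a median of -0.14 over 8 genes and sums of normalised level of 6731 in knockout and 7200.5 in wild-type P1 liver. Neutrophil markers had a median of -0.37 over 6 genes, but -0.11 in the authors' deposited values and 0.17 with median centring. Platelet markers had one of -0.01 over 6 genes, and 0.31 with median centring, and macrophage markers stood at 0.06 with that setting. Their part in these ratios was not tested.

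**Figure D2:**
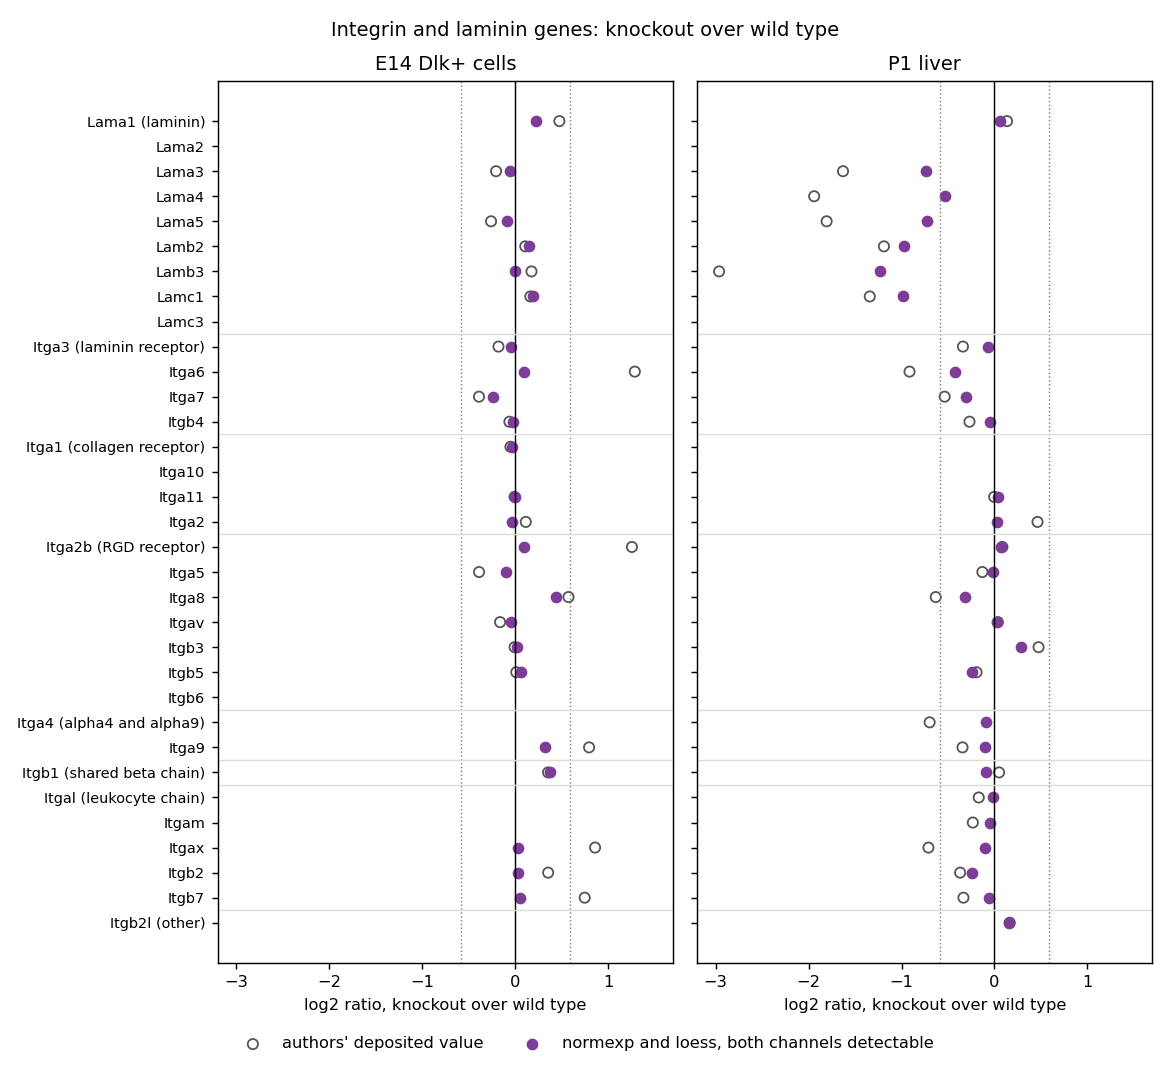
Log2 ratio of knockout over wild type for each integrin and laminin gene in E14 Dlk+ cells (left) and P1 liver (right). Filled points are the normalised values of genes detectable in both channels, open circles the authors' deposited values, and dotted lines mark 1.5-fold. In P1 liver 5 laminin genes lie beyond the left dotted line and no integrin does in the normalised values.

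The integrin and laminin partners fixed by role were mostly below 0 in P1 liver. Of 22 detectable genes of integrin ligands and basement membrane, 7 passed 1.5-fold on the lower side and 0 on the higher side. All genes had shares of 4.12% and 2.85%, and the median of the list was -0.13. Lowest were Col4a2 (-1.85), a chain of the collagen network of basement membranes, Icam2 (-1.38), a leukocyte integrin ligand on endothelium, Sparc (-1.21), a collagen-binding matrix protein, and Tnc (-0.85), the matrix protein tenascin C. Nid1, whose product nidogen binds the laminin gamma1 chain, stood at -0.80. The highest of the list was Rpsa, a ribosomal protein gene, at 0.45. The median of 33 detectable genes of the adhesion complex was -0.16. On the lower side 4 passed and on the higher side 0, against 4.12% and 2.85% of all genes. Those 4 were Flna (-0.90), which crosslinks actin, the tetraspanin genes Cd81 (-0.73) and Cd151 (-0.61), whose products associate with integrins, and Parva (-0.66), a partner of ILK. With median centring both lists had medians of -0.03, where that of all genes was 0.05. Without the type IV collagens the ligand list then stood at 0.04.

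Markers of other tissues and cells also differed between the P1 liver channels. Lung epithelial markers had a median log2 ratio of -5.24, and 9 of 9 measured were lower in the knockout by 2-fold or more, against 1.45% of all genes. All 12 markers were detectable in the wild-type channel and 9 in the knockout channel, where Sftpb, Lamp3 and Nkx2-1 were not. Their summed normalised level was 939 in knockout and 52916 in wild-type P1 liver. In E14 Dlk+ cells, 7 of the 12 were detectable in each channel, with sums of 767 and 768 in knockout and wild type. Endothelial markers of P1 liver had a median of -0.67, with 4 of 7 past 1.5-fold on the lower side, against 4.12% of all genes. With median centring the endothelial median was -0.30, where that of all genes was 0.05. Cdh5 and Emcn were not detectable in the knockout channel, and the sums were 3108.5 in the knockout and 5413.9 in the wild type. Smooth muscle markers had a median of -1.54 over 3 genes, with sums of 288 in the knockout and 794 in the wild type, and Cnn1 not detectable in the knockout channel. Stellate cell and fibroblast markers were all detectable in both channels, with a median of -0.10 over 11 genes and sums of 3056 in the knockout and 3321 in the wild type. Erythroid markers had a median of -1.12 over 4 genes, and of -0.73 with median centring. All 4 were detectable in both channels, with sums of 2700.3 in the knockout and 5883.8 in the wild type. Mesothelial markers had a median of -0.64 over 4 genes of 6, with Podxl at -1.22, Msln at -1.08, Upk3b at -0.20 and Wt1 at 0.10. Their median was -0.39 with the local background used and -0.09 without the detection filter. Krt19 was detectable in neither channel and Gpm6a in the knockout channel only, with sums of 885 in the knockout and 1587 in the wild type. Bile duct markers had a median of -0.13 over 3 genes of 4, with Epcam at -1.23 and Sox9 at 0.17. The part of these cells, and of the lung genes, in the laminin ratios was not tested.

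**Figure D3:**
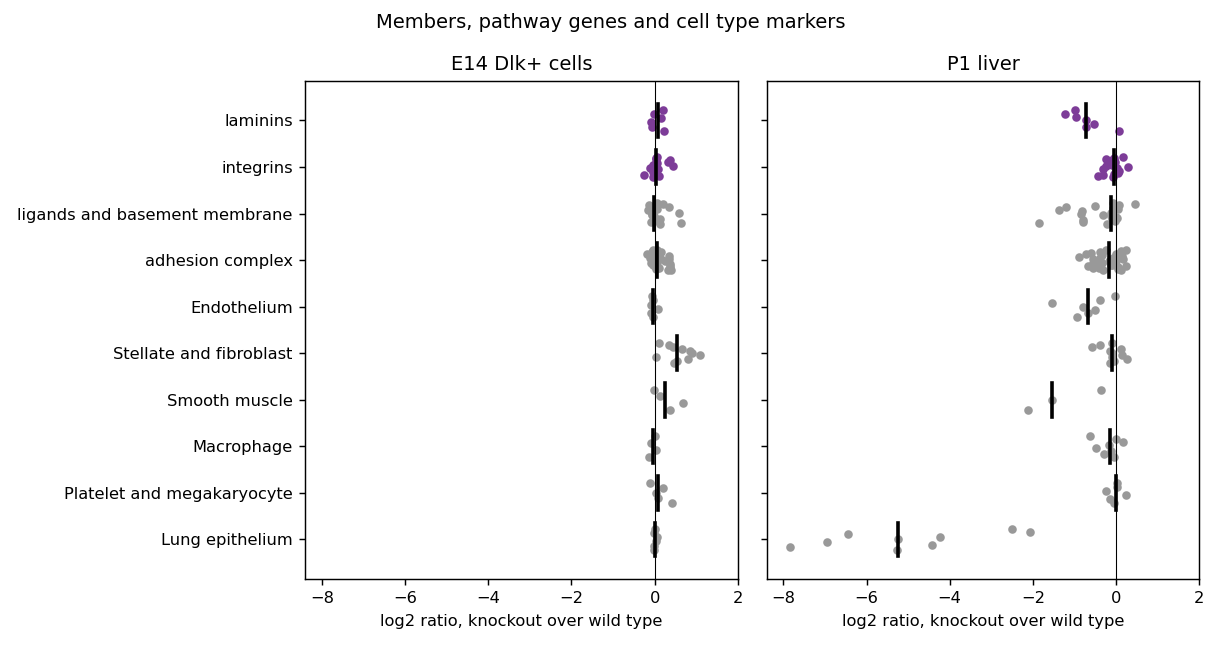
Log2 ratios of knockout over wild type in E14 Dlk+ cells (left) and P1 liver (right), 1 point per gene detectable in both channels, with the median of each list as a black bar. In P1 liver the laminins have a median of -0.74 and the lung epithelial markers one of -5.24, and in E14 Dlk+ cells the stellate cell and fibroblast markers have one of 0.53.

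In sorted E14 Dlk+ cells no member passed 1.5-fold in either direction among the 24 detectable in both channels. Among all 12705 such genes, 0.307% passed on the higher side and 0.220% on the lower side, so a count of 0 among 24 is near this background. Below 0 lay 11 of the 24, against 46.9% of all genes. The median was 0.02 over the 24 members and 0.01 over all genes. The laminins had a median of 0.07 over 6 genes and the integrins 0.02 over 18 genes.

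The members farthest from 0 in E14 Dlk+ cells were integrin chains with higher ratios. Itga8 had signals of 360.5 in knockout and 116 in wild-type cells, 4.24 and 2.62 times the thresholds, and a ratio of 0.44, or 1.36-fold. Itgb1 had signals of 1420 in knockout and 454 in wild type and a ratio of 0.38. Itga9, which pairs with Itgb1 and binds tenascin C, had signals of 159 and 60.1 in knockout and wild type and a ratio of 0.32. The authors' deposited table gave 0.57 for Itga8, 0.35 for Itgb1 and 0.79 for Itga9. With the local background used they stood at 0.64, 0.62 and 0.11. The normalised ratios of Itga8, Itgb1 and Itga9 lay beyond the spread of 0.12 between probes, which was measured on those ratios only. No such spread was computed for the deposited or local-background values. The lowest member was Itga7 at -0.24 (304.5 and 157). With median centring in place of loess it stood at 0.22, where the median of all genes was 0.29.

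Laminins of E14 Dlk+ cells showed Lamb2 and Lamc1 well above the threshold. Lamb2 had signals of 1545 in knockout and 576 in wild-type cells, with a ratio of 0.15, and Lamc1 had 942 and 344, with a ratio of 0.19. With the local background used, Lamb2 stood at -0.02. Lama1 had the highest laminin ratio at 0.23 (166 and 66.3). Both Lama5 (-0.09, signals of 151 and 75.3) and Lama3 (-0.06, signals of 133 and 65.9) lay within the spread between probes. Lamb3 was just above the thresholds at 95.7 and 47.5, with a ratio of -0.01. Lama4 and Lamc3 were detectable in the knockout channel only, at 1.03 and 1.02 times the threshold, and Lama2 in neither. The signals of Lama4 were 87.6 in knockout and 41.8 in wild-type cells.

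The other receptor chains lay closer to 0 than the spread between probes in E14 Dlk+ cells. Of the laminin receptors, Itga6 stood at 0.10 (97.4 in knockout and 45.0 in wild type), Itga3 at -0.05 (123 and 61.0) and Itgb4 at -0.02 (111 and 54.8). Of the receptors of fibronectin and vitronectin, Itga5 stood at -0.10 (110.1 and 57.4), Itgav at -0.04 (132 and 64.6) and Itgb5 at 0.06, with signals of 1129 in knockout and 450.4 in wild-type cells. The collagen receptor chains Itga1 (92.1 and 46.9) and Itga2 (86.8 and 44.5) both stood at -0.04 and Itga11 (119 and 57.5) at -0.00. The platelet chains Itgb3 (144 and 67.2) and Itga2b (96.8 and 44.9) stood at 0.02 and 0.09, and Itgb2 (100.2 and 48.3) at 0.03.

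Receptor chains of hematopoietic cells were at or near the threshold in the sorted cells, from which the CD45+ and Ter119+ cells had been gated out. Itgam and Itgb2l were detectable in neither channel, and Itgal and Itga4 in the knockout channel only, at 1.01 and 1.03 times the threshold. Their signals were 81.1 in knockout and 40.9 in wild-type cells for Itgam, 85.6 and 43.5 for Itgal, and 87.3 and 42.2 for Itga4. By the authors' deposited table, a share of 5.38% of all genes passed 1.5-fold on the higher side on this array, and 5 members did. The members were Itga6 (1.29), Itga2b (1.26), Itgax (0.86), Itga9 (0.79) and Itgb7 (0.75). Apart from Itga9, each had a wild-type signal of at most 1.03 times its threshold, between 44.8 for Itgax and 45.8 for Itgb7. Their normalised ratios were 0.10 for Itga6, 0.09 for Itga2b, 0.03 for Itgax and 0.05 for Itgb7, and with median centring these 4 genes lay below 0.

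In E14 Dlk+ cells, 2 of 22 detectable ligand and basement membrane genes passed 1.5-fold on the higher side and 0 on the lower. The shares of all genes were 0.307% and 0.220%, and the median of the list was -0.02. Those past 1.5-fold were Col4a2 at 0.65 (signals of 584 in knockout and 159 in wild type) and Tnc at 0.59 (360.5 and 105). Next came Sparc at 0.35 and Rpsa, a ribosomal protein also known as a laminin receptor, at 0.21. Of 33 adhesion complex genes, 0 passed 1.5-fold and 23 lay above 0, against 6748 of all 12705 genes, and the median was 0.05. The largest ratios were those of the talin gene Tln2 (0.39), the kindlin gene Fermt2 (0.38), Parva (0.38) and the vinculin gene Vcl (0.36). With median centring the medians were 0.51 for the adhesion complex and 0.41 for the ligand list, where that of all genes was 0.29. Stellate cell and fibroblast markers were also higher, with a median of 0.53 and 5 of 11 past 1.5-fold, against 0.307% of all genes. All 11 markers were detectable in both channels, with summed levels of 7974 in knockout and 4760.5 in wild-type cells. Endothelial markers had a median of -0.05 over 6 genes, with sums of 1190.0 in the knockout and 1242.6 in the wild type, and Cdh5 in neither channel. Mesothelial markers had a median of -0.17 over 6 genes, and of -0.04 with the local background used. Upk3b at -1.01 and Podxl at -0.64 passed 1.5-fold on the lower side, against 0.220% of all genes, and Wt1 stood at 0.02. All 6 markers were detectable in both channels, with sums of 695.5 in the knockout and 970.9 in the wild type. Smooth muscle markers had a median of 0.25 over 4 genes, all detectable in both channels, with Tagln at 0.68 and Acta2 at 0.37, and sums of 1688.8 in the knockout and 1269.9 in the wild type. The smooth muscle median was 0.11 with the local background used and 0.57 in the authors' deposited values. Neutrophil markers had a median of 0.33, with 6 of 6 above 0, against 6748 of all 12705 genes. Their sums were 573 in the knockout and 464 in the wild type. The neutrophil median was 0.13 with the local background used and 1.10 in the authors' deposited values. Some of these markers were dim, with wild-type signals of 44.9 for Camp and 47.1 for Ltf. The part of all these cells in the ratios of Itga8, Itgb1 and Itga9 was not tested.

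Levels of the same probe were also set side by side between P1 liver and E14 Dlk+ cells within each genotype and dye, after normalisation between the arrays. Age and cell population differ together here, so they cannot be told apart. Of 26 members detectable in both knockout channels, 2 were higher in P1 liver by 2-fold or more and 2 lower, against 6.20% and 5.96% of all genes, so each count is near the background. Of 23 in the wild-type channels, 4 were higher and 1 lower, against 6.54% and 4.75% of all genes.

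Lamb2 and Lamc1 were lower in P1 liver in both genotypes, by more in the knockout. The gap between the genotypes in these channel values restates the knockout over wild-type ratios of both arrays and is no further evidence. Lamb2 differed by -2.16 between knockout P1 liver and knockout E14 cells, and by -1.03 between the wild-type channels. Lamc1 differed by -1.86 in the knockout and by -0.69 in the wild type. Lamb3 was level in the knockout (0.08) and higher in P1 liver in the wild type (1.31), beside the lung markers of that channel. With scaling to the 75th percentile the Lamb3 values were 0.70 and 3.89. Lama3 and Lama5 also had lower values in the knockout (-0.08 and -0.40) than in the wild type (0.59 and 0.24).

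Some platelet and leukocyte integrin chains were higher in whole P1 liver in both genotypes. Itga2b differed by 1.97 in the knockout and by 1.99 in the wild type, and Itgb2 by 1.47 and 1.74. Other such chains differed less. Itgb3, the platelet partner of Itga2b, differed by 0.28 in the knockout and 0.01 in the wild type. Itgax differed by -0.01 and 0.12, Itgb7 by 0.11 and 0.21, and Itga4 by 0.03 in the knockout. Itgb2l and Itgam were detectable in P1 liver only. In the knockout they were higher by 3.33-fold and 1.7-fold, measured against E14 readings below the threshold. In the wild type the bounds were at least 2.85-fold and 1.64-fold higher. Itga6 was higher by 0.61 in the knockout and by 1.13 in the wild type. Itgb1 was level in the knockout (-0.03) and stood 0.44 higher in wild-type P1 liver, and Itgb5 was lower in both (-0.65 and -0.35). Itga8 differed by -0.98 in the knockout and by -0.23 in the wild type. With scaling to the 75th percentile in place of the quantile method the sizes were larger, at 4.37 in the knockout and 5.59 in the wild type for Itga2b, 3.47 and 4.25 for Itgb2, and 2.17 and 4.43 for Itga6, whose E14 signals lay near the threshold. Platelet markers had summed levels of 4570.8 in knockout and 4781.4 in wild-type P1 liver, against 499 in knockout and 459 in wild-type E14 cells, where CD45+ cells had been gated out. Macrophage markers had 6731 and 7200.5 in P1 liver, against 584 and 598 in E14 cells. Their part in these differences was not tested.

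**Figure D4:**
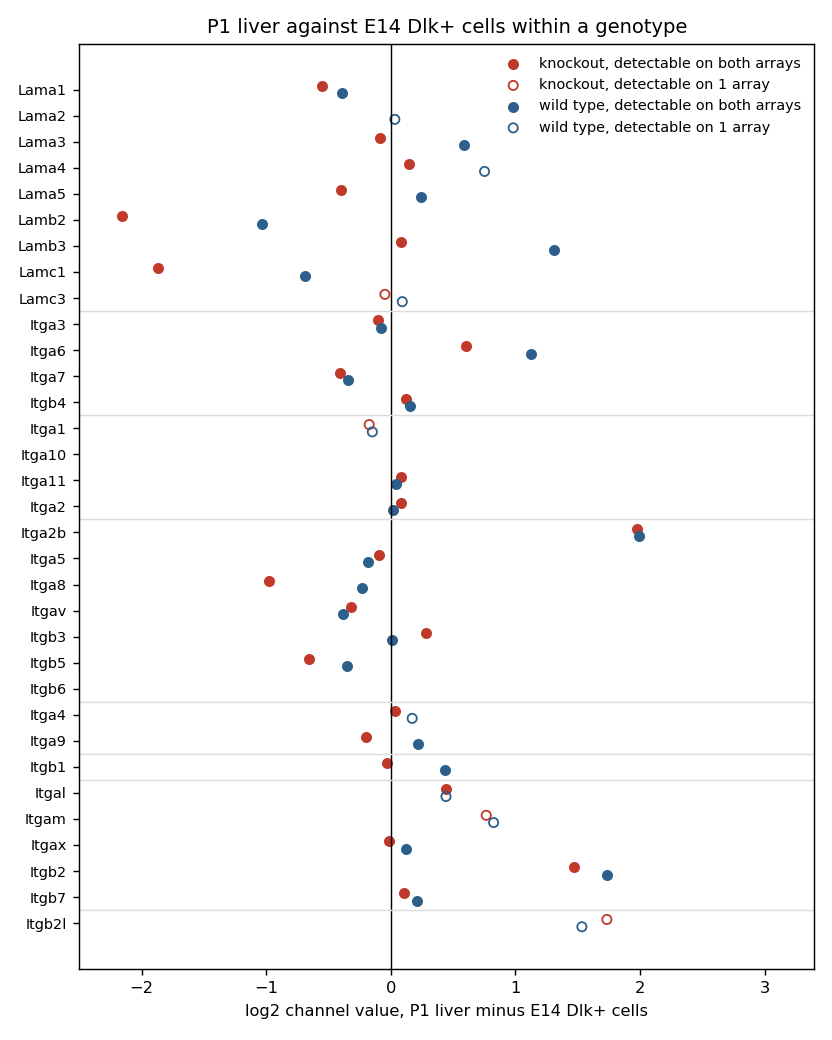
Normalised log2 channel value in P1 liver minus that in E14 Dlk+ cells for each member, in knockout (red, Cy3) and wild type (blue, Cy5). Filled points were detectable on both arrays and open points on 1. Itga2b, Itgb2 and Itgb2l lie to the right in both genotypes, and Lamb2 and Lamc1 lie farther left in the knockout than in the wild type. The gap between the genotypes of a gene restates its ratios on both arrays.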

How the data were processed

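Spot intensities of both channels (635 nm for Cy5 and 532 nm for Cy3) were taken from the deposited scanner files, which per the file headers hold a spot median and a local background median that were not normalised. The authors' deposited value table is on a log2 scale with the knockout on top. Its values matched the blank-subtracted, median-centred channel ratio of the scanner files (Pearson 1.00 on both arrays). Their column medians were 7.21e-07 on the E14 array and -2.74e-05 on the P1 array, so scale, centring and direction are known.

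Background was corrected in limma 3.58.1 (R 4.3.3) by normexp on the spot signal with an offset of 50, which shrinks the ratios of dim genes. Ratios were normalised by loess with control spots at weight 0. A check on simulated data changed only probes bright in wild-type E14 cells, so it does not cover the dim members. Detection used blank spots with 5 percent removed at each end. Aquantile-normalised channel values served for bounds, summed levels and comparisons between arrays. A bound sets the brighter channel against the lowest detectable value of the other, or the gene's own value there if higher. In the latter case it equals the measured ratio, and bounds are open to dye bias. Of 23473 gene probes, 16631 had 1 gene symbol, 0 had several and 6842 were unnamed. Symbols were updated through a RefSeq table of assembly GRCm38.p6. Integrin and laminin genes without a named probe were not analysed here.

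The members and lists were chosen with earlier results of these data known. Described in full were members past 1.5-fold and a set of chains chosen by role, and from each partner list the 4 genes farthest from 0, with Nid1 and other members outside that rule chosen after their values were seen. Precision is limited by the number of arrays. Alternatives were the local background in normexp, the authors' values, an offset of 20, median centring, detection at 3 SD or none, the brightest probe, whole-number readings left out, 2-fold in place of 1.5-fold, and scaling to the 75th percentile between arrays.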

Additional observations from a re-analysis of the deposited data

Results flagged for a closer look

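Lamb2 and Lamc1 had ratios of opposite sign on the 2 arrays. For Lamb2 the log2 ratio of knockout over wild type was -0.97 in P1 liver and 0.15 in E14 Dlk+ cells, a difference of -1.13. For Lamc1 it was -0.98 in P1 liver and 0.19 in E14 Dlk+ cells, a difference of -1.17. With 1 array for each, neither difference was tested. The Lamb2 ratio in E14 Dlk+ cells stood at -0.02 with the local background used. That of Lamc1 was above 0 under all 7 settings, of which those of the detection filter repeat the main ratio.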

How the results depend on the processing

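The count of members at least 1.5-fold higher in knockout E14 cells was 0, and became 2 with the local background in normexp (Itga8, Itgb1), 5 in the authors' deposited values and 5 with median centring (Itga8, Itgb1, Itgb5, Lamb2, Lamc1), a setting that put the median of all genes at 0.29. The count lower in knockout P1 liver was 5, became 10 in the authors' deposited values, where the median of the members was -0.34 against -0.09, and 1 at 2-fold (Lamb3). The other alternatives gave 4 to 6. Lama3, Lamb2, Lamb3 and Lamc1 were at least 1.5-fold lower in P1 liver under all 7 settings of background, scaling and filter, Lama5 under 6 and Lama4 under 2. Settings that changed only the detection filter kept each member's main ratio and so are no separate check of it. The cause of the shifts between settings was not tested. Over all genes, higher and lower counts at 1.5-fold were 39 and 28 in E14 cells, 488 and 31 with the local background, 684 and 155 in the authors' values and 3158 and 5 with median centring. In P1 liver these counts were 362 and 524, then 881 and 457, 1510 and 1556, and 1298 and 320. Between the arrays, scaling to the 75th percentile gave Lamb2 differences of -2.52 in the knockout and -1.17 in the wild type, and Lamc1 differences of -2.33 and -0.77, while the differences of Itga2b, Itgb2, Itga6 and wild-type Lamb3 were over 1.5 times as large as with Aquantile. With that scaling 5 members were higher and 4 lower in knockout P1 liver by 2-fold or more (2 and 2 otherwise), and 7 and 2 in the wild type (4 and 1 otherwise). No paired analysis was possible because each comparison is 1 array. Signal limits the dim members, since 9 of 33 in E14 cells and 5 of 33 in P1 liver were not detectable in both channels.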
